A study of Mus musculus with 11 samples.

Results

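Chromatin immunoprecipitation with sequencing (ChIP-seq) pulls down the DNA that a protein sits on, and a place where that DNA piles up over an input control is called a peak. The 8 genes described here encode receptors for the cytokines given to cultured B cells, the IL-21 receptor, and CD23, which answers to IL-4. They are Il2ra, Il2rb and Il2rg for IL-2, Il4ra for IL-4, Il5ra and Csf2rb for IL-5, and Il21r and Fcer2a, the gene of CD23. They were chosen by name out of 22225 protein-coding gene symbols, with earlier results of these data known. Every peak with its deposited position in one of them or within 20 kb of it was taken. That gave 75 regions out of 70542, where a region joins positions of all libraries less than 200 bp apart. Because Il4ra and Il21r are neighbours, 5 of the 75 regions count for both. The 20 kb limit is a distance and does not show which gene a peak acts on. Measured gene by gene, the IRF4 peak farthest inside it lay 19.9 kb from Il21r and the nearest outside lay 22.5 kb from Il4ra. The first of these also counted for Il4ra. The second lay in the region 1.4 kb upstream of Il21r, so it was counted for that gene and was not left out of the 75 regions. For PU.1 the farthest inside lay 19.9 kb from Il21r and the nearest outside 20.1 kb from Fcer2a.

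IRF4 is a transcription factor that rises when B cells are activated and stays high in plasma cells. On its own it binds DNA weakly, and with the Ets factor PU.1 it binds a composite element called the EICE. IL-2, IL-4, IL-5 and IL-21 signal through receptor chains that recruit Janus kinases and then STAT factors. IL-2 binds with high affinity to a complex of an alpha chain, a beta chain and the common gamma chain, and the gamma chain also serves IL-4 and IL-21. IL-5 uses its own alpha chain with a beta chain that IL-3 and GM-CSF receptors share. CD23, a low-affinity IgE receptor of B cells, is a classic target of IL-4 and serves here as a response gene, and IL-21 itself was not among the stimuli named by the labels.

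The libraries fell into 4 groups, all made from purified B cells of the spleen. The donor animals were B1-8i mice on a 129 background, whose gene-targeted antibody recognises the hapten NP. All cultures received the antigen NP-Ficoll and CD40L together with IL-5, IL-4 and IL-2, so no group lacked the cytokines. Anti-IRF4 gave 3 libraries after 3 days, when plasma cell differentiation was under way, and 3 after 1 day, when the cells were activated but not yet differentiated. Anti-PU.1 gave 2 libraries after 3 days and 2 after 1 day. One input pool, from separate B cell preparations, served all of them. Peak lists hold no expression, so the labelled cell type was not checked against markers, and day 3 cultures may have mixed cell types.

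With IRF4 the day 3 lists run to 2784, 1408 and 5595 peaks, and the day 1 lists to 825, 9326 and 8929. With PU.1 there are 34410 and 34061 peaks for day 3, against 27321 and 38052 for day 1. IRF4 day 1 replicate 1 stood apart by its short list. The lists end at a fold enrichment over input between 15.0 and 16.9 for IRF4 on day 3, between 20.9 and 21.9 for IRF4 on day 1 and between 14.9 and 15.1 for PU.1. A fold enrichment is the authors' own value for that peak, and it is given here to describe a place within its library, not to compare libraries. A missing peak means that no peak passed the authors' threshold, which is not the same as no binding.

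The sequences of the 7 places that IRF4 marked most often near these genes are shown here because the results turn on them. For each gene they are the regions called in the most IRF4 libraries, no more than 2 a gene and none called in fewer than 2 libraries. They were read from the mm9 genome, plus strand, 100 bases to either side of the median IRF4 peak position. Capitals mark matches to the EICE (GGAANNGAA), to an interferon-stimulated response element or ISRE (GAAANNGAA) or to a PU.1 site (GAGGAAGT), searched on both strands; none of the 7 windows matched more than 1 of these patterns.
Il5ra intron, 15.2 kb from the start site, chr6:106679754-106679954: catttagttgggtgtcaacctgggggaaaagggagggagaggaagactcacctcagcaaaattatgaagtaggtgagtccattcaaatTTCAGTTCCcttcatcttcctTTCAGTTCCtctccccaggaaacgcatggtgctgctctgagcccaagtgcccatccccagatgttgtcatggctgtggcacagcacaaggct
Il2ra intron, 20 kb from the start site, chr2:11584299-11584499: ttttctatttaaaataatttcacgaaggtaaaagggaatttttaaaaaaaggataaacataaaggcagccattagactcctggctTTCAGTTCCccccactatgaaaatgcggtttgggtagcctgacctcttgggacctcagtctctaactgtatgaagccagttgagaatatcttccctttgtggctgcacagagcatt
Fcer2a, 17.7 kb upstream, chr8:3711773-3711973: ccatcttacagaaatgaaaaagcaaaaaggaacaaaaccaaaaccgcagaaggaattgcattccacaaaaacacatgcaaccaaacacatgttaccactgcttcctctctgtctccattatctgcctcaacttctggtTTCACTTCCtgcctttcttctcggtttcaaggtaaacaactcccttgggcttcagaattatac
Il4ra intron, 3.5 kb from the start site, chr7:132699151-132699351: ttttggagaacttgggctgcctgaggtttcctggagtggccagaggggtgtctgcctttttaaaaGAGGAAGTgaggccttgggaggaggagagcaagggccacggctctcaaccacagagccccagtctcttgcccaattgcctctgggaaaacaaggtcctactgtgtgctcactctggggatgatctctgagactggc
Il5ra, 5.5 kb upstream, chr6:106700455-106700655: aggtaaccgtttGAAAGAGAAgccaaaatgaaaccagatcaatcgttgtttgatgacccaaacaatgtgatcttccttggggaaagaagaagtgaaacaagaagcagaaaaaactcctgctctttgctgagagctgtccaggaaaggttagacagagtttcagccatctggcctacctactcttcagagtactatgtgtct
Il2ra promoter, 0.2 kb upstream, chr2:11564148-11564348: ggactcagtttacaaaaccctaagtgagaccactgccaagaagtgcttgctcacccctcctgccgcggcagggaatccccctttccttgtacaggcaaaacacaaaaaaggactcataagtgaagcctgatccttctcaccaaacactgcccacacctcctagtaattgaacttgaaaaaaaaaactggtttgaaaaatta
Il2rb, 15.3 kb upstream, chr15:78340648-78340848: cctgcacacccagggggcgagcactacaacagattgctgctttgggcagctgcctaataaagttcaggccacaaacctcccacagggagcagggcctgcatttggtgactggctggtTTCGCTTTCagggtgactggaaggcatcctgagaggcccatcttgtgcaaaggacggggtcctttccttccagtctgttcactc

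Read on the minus strand, the Il5ra intron held the EICE GGAACTGAA at 106679842 to 106679850 and again at 106679863 to 106679871, with starts 21 bp apart. The Il2ra intron held the same 9 letters at 11584384 to 11584392, minus strand. The Fcer2a place held GGAAGTGAA at 3711911 to 3711919, minus strand. GGAACTGAA was present at 10.6% of all 1964 IRF4 day 3 group-list peaks and 8.81% of all 2496 of day 1, and 2 or more EICE at 2.49% and 1.60%. The form at Fcer2a, GGAAGTGAA, was present at 12.0% of the day 3 and 8.05% of the day 1 peaks. The other 4 places held no EICE. The Il4ra intron had a PU.1 site (132699216 to 132699223, plus strand), and the places upstream of Il5ra and Il2rb each had an ISRE, GAAAGAGAA at 106700467 to 106700475 on the plus strand and GAAAGCGAA at 78340765 to 78340773 on the minus strand. The Il2ra promoter window held none of the letters searched. A match describes the sequence and does not show a bound site.

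IRF4 marked some of these genes on both days and PU.1 marked nearly all of them. The authors deposited 1 list per factor and day, called a group list here, whose lines are copies of library peaks found in more than 1 library. In the IRF4 group list of day 3, 4 of the 8 genes had a peak (Il2ra, Il4ra, Il5ra and Fcer2a), against 8.47% of all genes. In that of day 1, 4 of 8 had a peak (Il2ra, Il2rb, Il5ra and Fcer2a), against 10.0% of all genes. PU.1 group lists had a peak at 7 of 8 genes on day 3 and at 7 of 8 on day 1, all but Il2rg, against 54.4% and 52.3% of all genes. The median span of the 8 genes was 27.5 kb and that of all gene records 15.4 kb, and longer genes offer more room for a peak.

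Requiring a peak in every library of a group gave fewer genes for IRF4. On day 3 there were 3 (Il2ra, Il5ra and Fcer2a), against 4.84% of all genes, and on day 1 there were 2 (Il2ra and Il5ra), against 3.17%. PU.1 marked 7 of 8 genes in every library of day 3 and 7 of 8 in every library of day 1, against 58.8% and 54.9% of all genes. With the stronger 50% of the IRF4 day 3 group list 1 gene was left, Il5ra. The day 1 count was 2 with 5 kb around genes, and 2 without day 1 replicate 2 or without replicate 3.

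**Figure D1:**
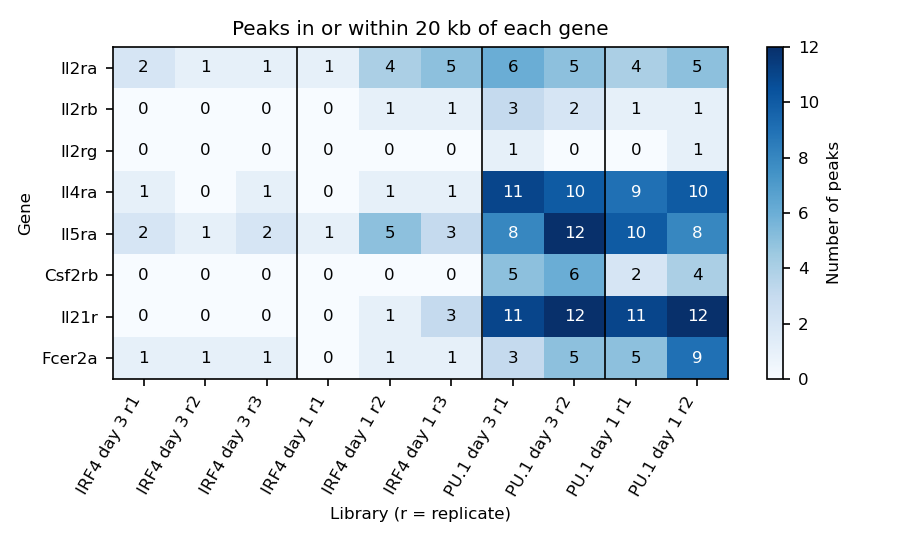
Number of peaks in or within 20 kb of each gene (rows) in each of the 10 libraries (columns, r = replicate), with the count printed in each field. Il2rg and Csf2rb have no IRF4 peak in any library, while Il5ra and Il2ra have at least 1 in every IRF4 library.

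Per library, the 8 genes together had 6, 3 and 5 IRF4 peaks on day 3 and 2, 13 and 13 on day 1. The short list of day 1 replicate 1 lies below every day 3 library and the long lists of replicates 2 and 3 lie above, so the days overlap. The means were 4.67 ± 1.53 on day 3 and 9.33 ± 6.35 on day 1 (SD, n = 3 each), a difference of -4.67 peaks (exact permutation test, two-sided, p = 0.4, adjusted p = 0.889 over 4 comparisons). The difference was -8.33 without day 1 replicate 1, and -2.83 without day 1 replicate 2 or replicate 3. It was -0.333 when each library gave as many top peaks as the shortest list. With 3 against 3 libraries this test cannot go below 0.1.

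PU.1 gave 45 and 49 peaks near the 8 genes on day 3 and 38 and 45 on day 1. The days meet at 45. The means were 47.0 ± 2.83 on day 3 and 41.5 ± 4.95 on day 1 (SD, n = 2 each), a difference of 5.5 peaks (exact permutation test, two-sided, p = 0.667, adjusted p = 0.889), where 2 against 2 libraries cannot go below 0.3333. The difference was 9 without day 1 replicate 2, 2 without day 1 replicate 1 and 3.5 without day 3 replicate 2. Taking as many top peaks from each library gave 0, and the stronger 50% of each list gave -1.

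As a share of a library's own peaks, these genes took 0.216%, 0.213% and 0.0894% of the IRF4 peaks on day 3 and 0.242%, 0.139% and 0.146% on day 1. The difference between the means, 0.173% ± 0.0721 on day 3 and 0.176% ± 0.0578 on day 1 (SD, n = 3 each), was -0.00315 percentage points (exact permutation test, two-sided, p = 1, adjusted p = 1). The sign changed when either of 2 libraries was dropped, to 0.0385 for day 3 replicate 3 and 0.0302 for day 1 replicate 1. PU.1 shares were 0.131% and 0.144% on day 3 and 0.139% and 0.118% on day 1. They averaged 0.137% ± 0.00925 and 0.129% ± 0.0147 (SD, n = 2 each), a difference of 0.00864 points (exact permutation test, two-sided, p = 0.667, adjusted p = 0.889). It turned to -0.00177 without day 1 replicate 2.

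**Figure D2:**
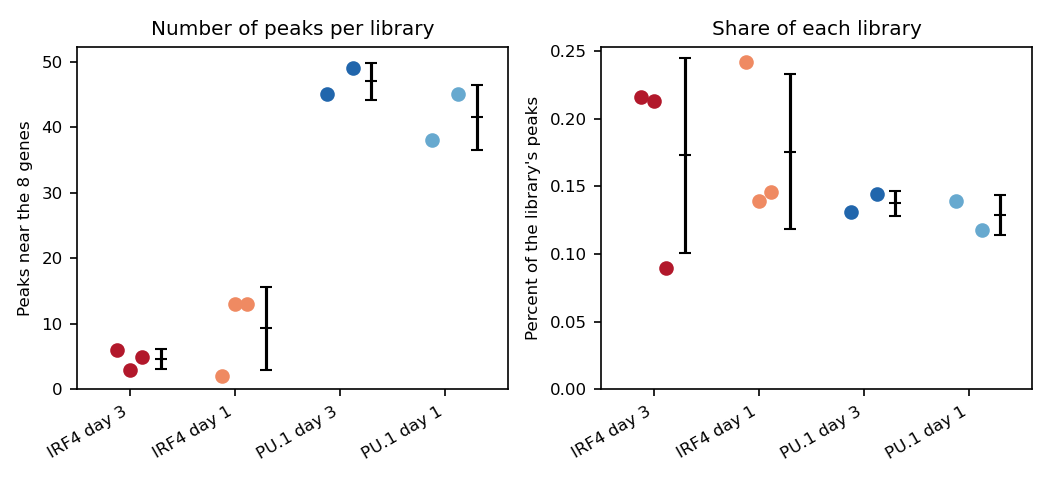
Peaks near the 8 genes per library as a number (left) and as a percent of all peaks of that library (right). Coloured points are libraries and the black bars to their right are the mean ± SD; IRF4 numbers on day 3 (3 to 6) lie between the 2 and the 13 of day 1, and PU.1 numbers run from 38 to 49.

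Of the 75 regions, 18 were called in an IRF4 library and 70 in a PU.1 library. IRF4 was seen in libraries of both days at 7 of the 18 and in day 1 libraries alone at 11. None was seen in day 3 libraries alone. Over all 20030 IRF4 regions these classes made up 14.8%, 65.0% and 20.2%. All 7 regions of both days also had PU.1 in at least 1 library, against 78.5% of all IRF4 regions called on both days. Of the 11 day 1 regions, 6 had PU.1 in at least 1 library of either day, against 19.8% of all such regions. At the Il2ra promoter and the region adjoining it, that PU.1 was called on day 3 and not on day 1. Together 13 of 18 IRF4 regions had PU.1, against 35.0% of all.

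IRF4 was called in at least 2 libraries at 11 of the 18 regions, against 21.0% of all IRF4 regions. In the group lists, 4 of 4 IRF4 peaks near these genes on day 3 had a PU.1 peak less than 200 bp away (exact binomial 95% interval 39.8 to 100%), as did 5 of 8 on day 1 (24.5 to 91.5%). Over all peaks of the lists it was 64.1% on day 3 and 56.8% on day 1. The intervals cover counting error only and include both of those shares. An EICE was present at 3 of the 4 day 3 peaks and 3 of the 8 day 1 peaks, against 33.9% and 25.9% of all group-list peaks and 7.00% and 6.69% of windows 2 kb away. The ISRE was present at 0 of 4 and 3 of 8 peaks, against 18.7% and 13.3% of all peaks. The AP-1 site TGANTCA was present at 0 of 4 and 2 of 8, against 21.6% and 29.8%. The PU.1 site was present at 1 of 4 and 0 of 8, against 13.2% and 9.09%. No peak of the 12 near these genes held the AP-1-IRF composite element.

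**Figure D3:**
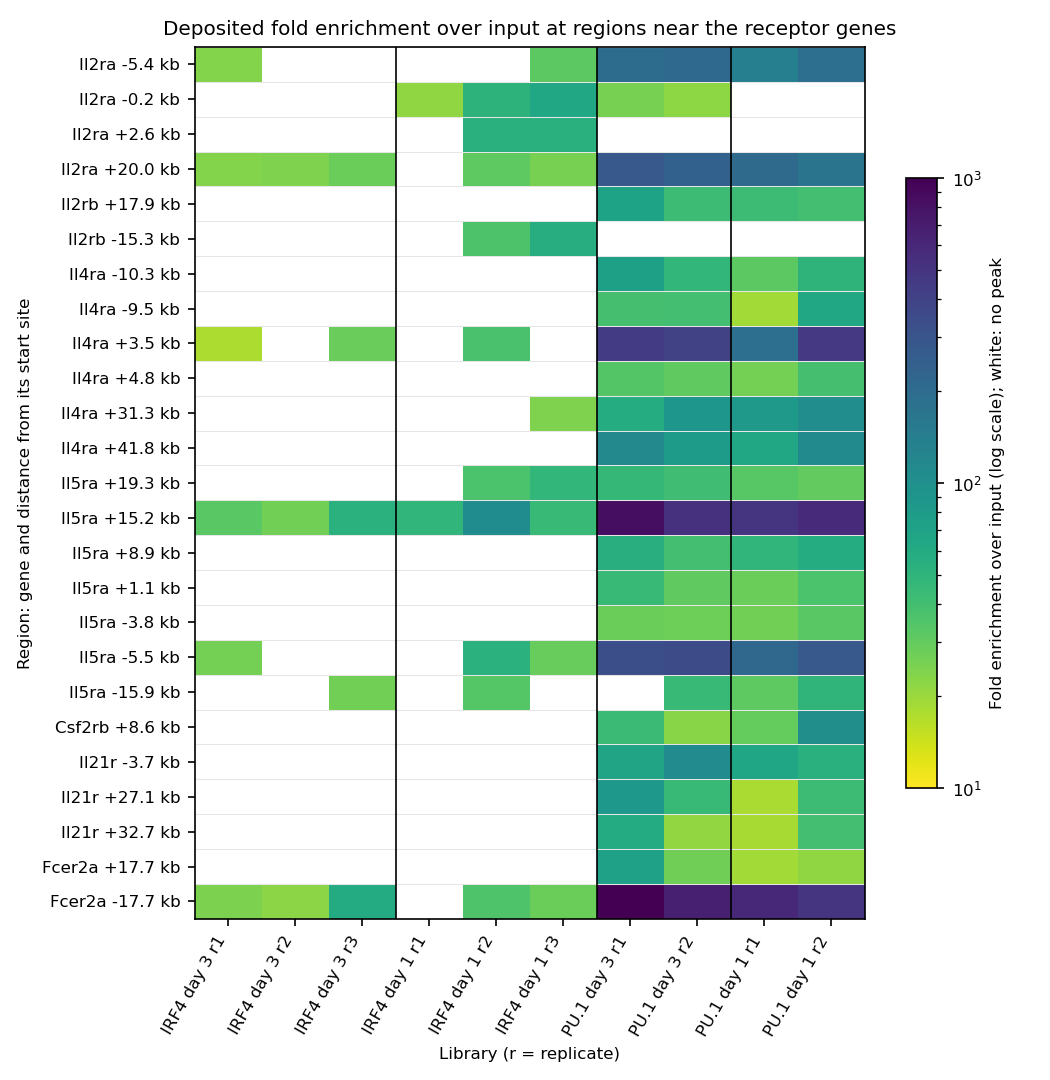
Deposited fold enrichment over input (colour, log scale) in each library (columns, r = replicate) at the 25 regions near the 8 genes that were called in at least 2 IRF4 libraries or in all 4 PU.1 libraries; white means that no peak was called. Only the Il5ra region at 15.2 kb is filled in all 10 libraries, and the darkest PU.1 fields are at Il5ra and 17.7 kb upstream of Fcer2a.

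Il5ra encodes the alpha chain that gives the IL-5 receptor its specificity, and it held the most widely called IRF4 place of the 8 genes. The gene lies on chromosome 6, 106660378 to 106695103, minus strand. Its intronic region at 106679507 to 106680259, 15.2 kb from the start site and with the paired EICE shown above, was called in all 6 IRF4 libraries, which holds for 1.46% of all IRF4 regions. IRF4 enrichment there was 32.4, 26.6 and 52.9 in the day 3 libraries and 48.5, 107 and 45.3 in the day 1 libraries. In day 1 replicate 2 it ranked 95 of 9326 peaks, and in day 3 replicate 3 it ranked 330 of 5595. PU.1 enrichment reached 841 and 517 in day 3 libraries, against 496 and 567 in day 1 libraries, within the top 1.34% of every PU.1 library.

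The other IRF4 places at Il5ra were called less widely. The region 5.5 kb upstream (106700185 to 106700798, intergenic) had IRF4 at 26.4 in day 3 replicate 1 and at 52.8 and 29.1 in day 1 replicates 2 and 3. PU.1 was strong there in all 4 libraries, at 333 and 352 on day 3 and 214 and 278 on day 1. An intronic region 19.3 kb from the start (106675647 to 106676339), with an AP-1 site, had IRF4 in day 1 replicates 2 and 3 (37.1 and 47.7) and in no day 3 library. PU.1 enrichment was 46.4 and 41.4 there in day 3 libraries, against 33.0 and 30.3 in day 1 libraries. The region 15.9 kb upstream, nearer to the start of Trnt1 than to that of Il5ra, had IRF4 in day 3 replicate 3 (26.8) and in day 1 replicate 2 (33.6). PU.1 was called there in 3 libraries, at 44.3 in day 3 replicate 2 and at 31.6 and 49.2 on day 1. A last IRF4 peak, of 22.6 in day 1 replicate 2 alone, lay past the end of the gene.

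Along Il5ra 14 regions carried PU.1, 6 of them in all 4 libraries. Apart from the 3 above these lay 8.9 kb and 1.1 kb into the gene and 3.8 kb upstream. The region 8.9 kb in had 55.7 and 39.8 on day 3 and 48.1 and 58.1 on day 1, and the one 1.1 kb in, with a PU.1 site, 44.0 and 30.6 on day 3 against 28.2 and 36.8 on day 1. The region 3.8 kb upstream had 28.1 and 27.8 on day 3 and 26.6 and 32.7 on day 1. These 3 were far below the EICE place in enrichment in every PU.1 library and had no IRF4 in any library.

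Csf2rb, the beta chain that completes the IL-5 receptor, had PU.1 and no IRF4. The gene lies on chromosome 15, 78156420 to 78184277, plus strand, and the nearest IRF4 peak was 58.5 kb away. Of its 6 PU.1 regions 1 was called in all 4 libraries. It is intronic, 8.6 kb from the start (78164876 to 78165253), with 43.3 and 22.5 on day 3 and 29.5 and 102 on day 1. At the start site itself PU.1 was called in both day 3 libraries (52.3 and 37.6) and in day 1 replicate 2 (76.1). Regions 4.2 kb into the gene (39.0 and 31.2), with an EICE, and 44.1 kb from the start (28.3 and 23.9) were called in both day 3 libraries and in neither day 1 library. The neighbouring Csf2rb2, a mouse paralog, likewise had PU.1 in both group lists and no IRF4.

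Il2ra encodes the alpha chain of the IL-2 receptor, CD25, which activated lymphocytes put on their surface. It lies on chromosome 2, 11564419 to 11614818, plus strand, and held 6 of the 18 IRF4 regions, more than any other of the genes. Of these, 4 were called in at least 2 IRF4 libraries, the same number as at Il5ra. The intronic region 20 kb from the start (11583720 to 11584858), with the same EICE letters as at Il5ra, had IRF4 at 23.3, 24.3 and 28.0 in the day 3 libraries. On day 1 it was 31.4 and 25.8 in replicates 2 and 3, with no peak in replicate 1. PU.1 enrichment there was 274 and 239 in day 3 libraries and 204 and 170 in day 1 libraries. IRF4 was called there on both days at modest rank, between the top 26.7% and the top 54.0% of its libraries, while PU.1 was in the top 7.88% of every library.

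The Il2ra promoter had IRF4 in all 3 day 1 libraries and in no day 3 library, a pattern found at 0.19% of all IRF4 regions, or 38 in all. Its enrichment was 21.3, 50.9 and 64.9 in day 1 replicates 1, 2 and 3. In replicate 3 it ranked 420 of 8929, but in replicate 1 it ranked 781 of 825 and was just above the end of the list. PU.1 showed the opposite, with low peaks of 25.7 and 21.7 in the day 3 libraries and none on day 1. The deposited intervals span 11564016 to 11564704, and an adjoining region just past the start site had IRF4 in day 1 replicate 2 (22.5) and PU.1 in day 3 replicate 1 (15.9). The day 3 IRF4 lists reach lower enrichments than the day 1 lists and are shorter than those of day 1 replicates 2 and 3, and the part of list length in this pattern was not tested.

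Another Il2ra place of day 1 lay in the gene 2.6 kb from the start (11566907 to 11567373), with an ISRE and an AP-1 site and no PU.1 in any library. IRF4 was 53.8 and 53.9 in day 1 replicates 2 and 3. It was called in neither replicate 1 nor any day 3 library. The region 5.4 kb upstream (11558442 to 11559310) had IRF4 in 1 library of each day, at 23.5 in day 3 replicate 1 and 31.8 in day 1 replicate 3. PU.1 was called there in all 4 libraries, at 197 and 207 on day 3 and 137 and 185 on day 1. A further IRF4 peak of day 1 replicate 3 (36.3) lay at the start site of the neighbour Il15ra, which encodes the IL-15 receptor alpha chain, and belongs to Il2ra only by the distance rule.

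**Figure D4:**
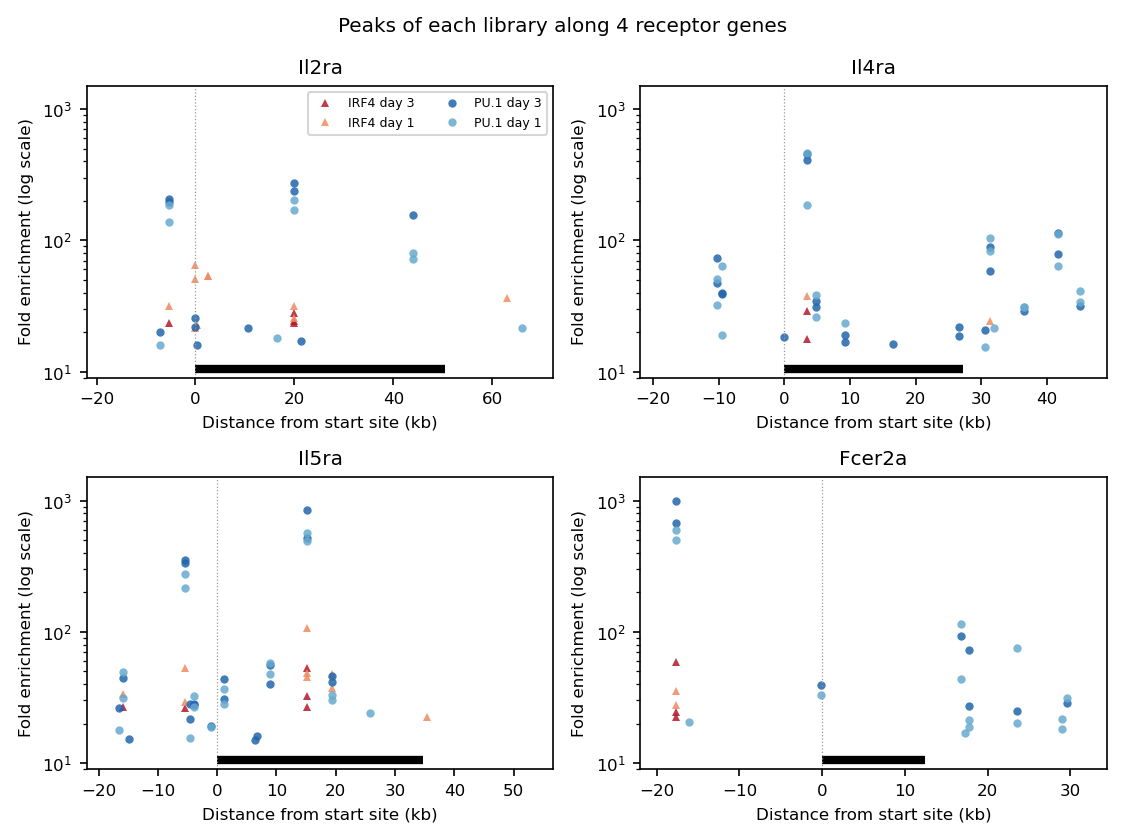
Deposited fold enrichment (log scale) of each peak against its distance from the gene's start site, for Il2ra, Il4ra, Il5ra and Fcer2a; each symbol is 1 library, triangles are IRF4 and circles PU.1, darker for day 3 and lighter for day 1, and the black bar is the gene. IRF4 triangles stand below the PU.1 circles where both are called at the strongest places, and the Il2ra promoter has triangles of day 1 alone.

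The beta chain gene Il2rb and the gamma chain gene Il2rg had the fewest regions of the 8 genes, 5 and 2. Il2rb lies on chromosome 15, 78310983 to 78325496, minus strand. Its single IRF4 region, 15.3 kb upstream (78340609 to 78341004, intergenic), was called in day 1 replicates 2 and 3 (36.2 and 56.3) and in no day 3 library, with no PU.1 in any library and the ISRE shown above. PU.1 was called in all 4 libraries at 1 place, 17.9 kb from the start and past the end of the gene, with 69.0 and 42.6 on day 3 and 42.2 and 39.5 on day 1. That place held an EICE but no IRF4 peak. Il2rg lies on chromosome X, 98459717 to 98463594, minus strand. It had PU.1 in day 3 replicate 1 at its start site (19.2) and in day 1 replicate 2 in an exon (16.0). The strongest peak there stood at percentile 20.4 of its day 3 list and 5.68 of its day 1 list, where 0 is the weak end, and the nearest IRF4 peak was 204 kb away.

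Il4ra encodes the chain that IL-4 receptors and IL-13 receptors share. It lies on chromosome 7, 132695785 to 132722986, plus strand. Its main region is in an intron 3.5 kb from the start (132698895 to 132699442) and holds a PU.1 site. IRF4 was called there at 17.6 in day 3 replicate 1, 28.7 in day 3 replicate 3 and 37.8 in day 1 replicate 2, so 3 of 6 libraries lacked it. PU.1 enrichment was 453 and 411 in day 3 libraries and 187 and 465 in day 1 libraries. The place entered the IRF4 group list of day 3 and not that of day 1, where only 1 library had it. Day 3 had it in 2 of 3 libraries and day 1 in 1 of 3.

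PU.1 marked 14 regions at Il4ra, 6 of them in all 4 libraries. The 2 upstream places, at 10.3 kb and 9.5 kb, had 73.2 and 47.4 on day 3 against 31.9 and 50.4 on day 1, and 39.2 and 39.8 on day 3 against 19.0 and 63.2 on day 1. The place 4.8 kb into the gene had 34.2 and 30.9 on day 3 against 26.0 and 38.6 on day 1. Past its end 2 of these regions are shared with Il21r. The first, 31.3 kb from the start of Il4ra and 19.9 kb upstream of Il21r, had 57.9 and 89.5 on day 3 and 83.4 and 104 on day 1, with IRF4 in day 1 replicate 3 (24.5). The second, 9.4 kb upstream of Il21r, had 114 and 78.8 on day 3 and 64.3 and 111 on day 1 and no IRF4. These enrichments describe places within each library and do not compare the days.

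Il21r encodes the IL-21 receptor, which also signals with the gamma chain. It lies on chromosome 7, 132746943 to 132777084, plus strand, and carried the most regions, 17, with 16 of them called by PU.1. IRF4 was called at 4 of these, each in 1 day 1 library and at an enrichment between 24.0 and 29.2, and in no day 3 library, so the gene was in neither IRF4 group list. PU.1 was called in all 4 libraries at 5 regions. The one 3.7 kb upstream, with a PU.1 site, had 67.9 and 109 on day 3 against 65.4 and 53.6 on day 1. The one 27.1 kb into the gene had 85.8 and 44.8 on day 3 against 17.9 and 42.4 on day 1. The one 32.7 kb from the start had 58.6 and 21.0 on day 3 and 18.3 and 39.3 on day 1. At the start site PU.1 was called in both day 3 libraries (24.4 and 21.1), and an adjoining region whose interval also covers the start site had PU.1 in day 1 replicate 2 (19.8).

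Fcer2a encodes CD23 and lies on chromosome 8, 3681737 to 3694174, minus strand. It held the strongest PU.1 place of the 8 genes in 3 of 4 PU.1 libraries, 17.7 kb upstream of its start (3711617 to 3712222), in what the annotation calls an intron of Clec4g, 5.7 kb from that gene's start. PU.1 enrichment was 989 and 672 in day 3 libraries and 593 and 498 in day 1 libraries, and ranked 96 of 34410 in day 3 replicate 1 and 97 of 27321 in day 1 replicate 1. In day 1 replicate 2 it ranked 456 of 38052, below the Il5ra intron at 330. Enrichments of different libraries are not on a common scale, so these values do not compare the days. IRF4 was called at the same EICE place at 24.7, 22.4 and 59.1 on day 3 and at 35.5 and 27.9 in day 1 replicates 2 and 3. Day 1 replicate 1 lacked it. Near Trappc5, on the other side of the gene, PU.1 was called in all 4 libraries at 1 region, with 72.1 and 27.1 on day 3 and 18.8 and 21.4 on day 1. A region beside it, 16.8 kb from the start of Fcer2a, had 92.6 in day 3 replicate 2 against 43.5 and 114 on day 1, and no peak in day 3 replicate 1. At the start site of Fcer2a PU.1 was called in 1 library of each day, at 39.1 on day 3 and 33.0 on day 1.

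PU.1 regions were shared by all 4 libraries at 21 of 70, against 24.7% of all 57520 PU.1 regions, and 21 of the 70 were called in 1 library. IRF4 was called at 13 of the 70, against 12.2% of all PU.1 regions. The regions in both day 3 libraries and in neither of day 1 numbered 5, against 3.78% of all, and lay at the Il2ra promoter, in Il4ra, at Csf2rb (2) and at the Il21r start, where the overlapping interval of an adjoining region had a day 1 peak. The reverse was seen at 1 region, beyond the end of Fcer2a, against 2.38% of all. In the PU.1 group lists the PU.1 site was present at 9 of 33 peaks near these genes on day 3 and 7 of 31 on day 1, where 24.2% and 26.9% of all peaks held it. The EICE was present at 7 of 33 and 5 of 31, against 20.1% and 21.2%.

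Genes whose strongest peaks ranked most like these were listed by the mean absolute difference, over the 10 libraries, of the percentile of the strongest peak within 20 kb. For Il5ra they were Ets1 (4.43 percentile points), Apex1 and Osgep (4.51 each), and for Il2ra they were Sla (4.06), Lrmp (4.16) and Plxnc1 (4.42). For Il4ra they were Amz2 (2.32), Rab35 (2.59) and Sipa1l1 (2.77), and for Fcer2a they were AW549877 and Fbxo4 (2.99 each) and Coq2 (3.24).

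Among 20 genes that signal below these receptors, 12 had a peak in the IRF4 group list of day 3 and 12 in that of day 1, against 8.47% and 10.0% of all genes as above. The kinase genes Jak2 and Tyk2, the STAT genes Stat3 and Stat5a, the inhibitors Socs1, Socs2 and Socs3, and Lyn, Syk and Grb2 were in both lists. Jak1 and the inhibitor Cish were in the day 3 list and not in the day 1 list, but each had a peak in 2 IRF4 libraries of each day. Pim1, in the day 1 list and not in the day 3 list, is a kinase gene that STAT5 induces and was marked by IRF4 in 0 libraries of day 3 and 2 of day 1. Stat3 and Stat5a are neighbours and share a peak in every list. Jak3, the kinase of the gamma chain, had no IRF4 peak in any library, and Stat6, the factor of IL-4, had one in 1 library of each day. PU.1 group lists marked 20 of the 20 on day 3 and 18 on day 1, where all genes gave 54.4% and 52.3%.

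Of 20 other cytokine receptor genes, 4 were in the IRF4 list of day 3 (Il6ra, Il10ra, Il12rb1 and Il17ra) and 5 in that of day 1 (Il6ra, Il6st, Il7r, Il10ra and Il12rb1). Il6ra and Il10ra had an IRF4 peak in all 6 libraries. Il6st, the signal chain of the IL-6 family, had one in 0 day 3 and 2 day 1 libraries. All genes gave 8.47% and 10.0%. PU.1 marked 17 of the 20 on day 3 and 19 on day 1, against 54.4% and 52.3% of all genes. Il15ra, in the day 1 list and not in the day 3 list, shares with Il2ra the PU.1 peak 43.9 kb from the Il2ra start. Neighbours within this list also shared PU.1 peaks on both days, so the counts are not of independent genes. For the CD40L stimulus, Cd40 and its adaptors gave 2 of 6 in the IRF4 list of day 3 (Traf1 and Traf5) and 1 of 6 in that of day 1 (Traf1), and 5 of 6 for PU.1 on each day, beside the same shares of all genes. Cd40 itself had an IRF4 peak in 1 library of each day.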

How the data were processed

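Peaks of 10 ChIP-seq libraries were analysed, with the groups and replicate numbers of the sample descriptions. Reads were placed on mm9 and peaks scored against input with QuEST, per the design text of the series, and the submitters' processing notes also name mm9. The aligner and the QuEST version and thresholds were not given in the sources used here. The deposited value of each peak is a fold enrichment, a linear ratio to input by the authors, and it was used only to describe and rank peaks within a list. Read counts are not in the lists, so the depth is unknown and no interval is given for a single peak. Peaks were called per library. The group lists hold copies of library lines: those near the 8 genes come from replicate 1 on IRF4 day 3 (4 of 4), from replicates 1 and 2 on IRF4 day 1 (2 and 6), and from replicate 1 for PU.1. Repeated lines (5 on PU.1 day 3, 7 on PU.1 day 1) were counted once.

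Genes were protein-coding genes of GENCODE M1 (mm9), and all 46 genes of the other lists were matched, Syk through an older symbol. The values of 1 gene of these lists are not reported here. A distance to a start site is to the outer start of the gene. Sequence came from the NCBI M37 (mm9) genome; deposited positions were read as counting from 1, which the sources used here do not state. Python 3.11.15, pandas 2.3.3, numpy 2.4.6 and pysam 0.24.0 were used. The distance and sharing rules were tested on simulated peaks. Libraries were compared with exact permutation tests, two-sided, with Benjamini-Hochberg adjustment over 4 comparisons. Nothing in the labels says that replicates are separate cultures or animals, and p-values then measure only the spread of these libraries, perhaps a technical one; 2 libraries carry a pair of numbers in their titles. The genes described were the 8 members, with regions in at least 2 IRF4 libraries or in all 4 PU.1 libraries given separately. The members and lists were chosen with earlier results of these data known. Alternatives were 5 and 50 kb around genes, the stronger 50% of each list, equal numbers of top peaks, 100 and 500 bp for sharing, a peak in every library, and leaving out each replicate.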

Additional observations from a re-analysis of the deposited data

How the results depend on the processing

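The number of IRF4 peaks near the 8 genes stayed lower on day 3 under every alternative tried. The difference was between -8.33 and -2.83 without 1 library, but only -0.333 with equal numbers of top peaks. For PU.1 the number was 2 to 9 higher without 1 library, 0 with equal numbers of top peaks, -1 with the stronger 50% of each list, and larger than reported with 5 kb (8.5) and with 50 kb around genes. As a percent of its library, IRF4 changed sign with 50 kb around genes (0.0181 percentage points), was -0.0417 with 5 kb and -0.0404 with equal numbers of top peaks, and ran from -0.0246 to 0.0385 without 1 library. The share of PU.1 peaks was -0.0108 points with the stronger 50%, 0 with equal numbers of top peaks, 0.0206 with 5 kb, 0.0219 with 50 kb and -0.00177 to 0.0191 without 1 library. The genes in the IRF4 group list numbered 1 on day 3 with the stronger 50%, and 2 on day 1 with 5 kb around genes or with a peak required in every library. Without 1 library they numbered 3 to 4 on day 3 and 2 to 4 on day 1. The cause was not tested, except that leaving out a library leaves fewer libraries to share a peak. Of 92 alternatives, 6 changed the sign of a difference and 5 moved a count by more than 1.5 times. A difference that fell to 0 was not counted as a change of sign. Shares with PU.1 were judged only by whether they left their exact binomial intervals. Those intervals are wide, so these shares could hardly count as moved. Leaving out libraries for the share with PU.1 was added after seeing the data and gave 100% on day 3 and 50 to 62.5% on day 1. Where a PU.1 library was left out, the whole list of the other library of that day stood in for shared peaks. That is a looser rule than the group list. Pairing libraries by replicate number (a replicate block, exact sign-flip test) left the differences at -4.67 IRF4 and 5.5 PU.1 peaks (p = 0.5 each) and at -0.00315 and 0.00864 percentage points (p = 1 each); the labels do not say that numbers pair libraries, and the deviations of same-numbered IRF4 libraries correlated at -0.267, 0.077 and -0.102. For differently numbered IRF4 libraries the correlations ran from -0.341 to 0.435. The replicate numbers are those of the sample descriptions. Those in the titles differ for some libraries and would pair others. Unknown depth limits what a missing peak can show.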
